A study of Mus musculus with 12 samples.

Results

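Gene expression was compared between the brains of mice with experimental cerebral malaria (ECM) that had received artesunate and those of both other groups of the study, to find transcripts whose level in treated ECM lay above or below both control and ECM. All 12 samples of the series entered the comparison. They were brains of wild type C57BL/6 mice aged 6 weeks, 4 libraries from normal mice (control), 4 from mice with ECM and 4 from ECM mice given artesunate for 4 days. The sources used here do not give the parasite, the dose or the time since infection, so time and treatment cannot be told apart. They also do not say that each library came from a separate animal, so p-values measure the spread between these samples, which may be technical. RNA came from bulk brain tissue, and in such data fewer cells of a type and less RNA per cell cannot be told apart.

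Experimental cerebral malaria is an encephalopathy of infected mice in which parasitised red cells and leukocytes collect in brain vessels and interferon gamma drives an inflammatory response. Artesunate is an artemisinin derivative that kills the parasite in the blood. Interferon gamma induces guanylate-binding proteins, MHC class I and, through the coactivator encoded by Ciita, the MHC class II genes with which cells present antigen to CD4+ T cells.

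Reads assigned to genes ranged from 13342177 to 18886822 per library. Neuronal, astrocyte, oligodendrocyte, microglial and endothelial markers were detected in every library, and the liver gene Alb had 4 counts in all. Control 4, ECM 2 and ECM 3 stood apart from the other libraries: mitochondrial transcripts took 10.7%, 15.2% and 13.2% of their reads, against 4.74% to 5.27% in the treated libraries, and their counts were tilted against genes of high GC content (rank correlation of a library's deviations with GC from -0.65 to -0.32, against 0.40 to 0.51 in treated ECM). In ECM 4 that correlation was 0.53, and in control 1, control 2, control 3 and ECM 1 it was 0.32, 0.29, -0.04 and 0.12. Mitochondrial transcripts took 5.54% to 7.89% of reads in control 1 to 3, ECM 1 and ECM 4. Every treated library thus had a lower mitochondrial share than every other library. Each also had a higher GC correlation than all others but ECM 4. These differences between libraries and the treatment can therefore not be fully told apart. The first principal component (35.8% of the variance) separated control from ECM libraries, with the treated libraries between them. Summed expression of 12 cerebellum genes also differed widely within each group, at 488 to 3070 CPM in control, 222 to 6251 CPM in ECM and 468 to 2774 CPM in treated ECM (CPM are read counts scaled to the size of the library). It was lowest in ECM 3, ECM 1, treated 3 and control 4 and highest in ECM 2, and the part of tissue makeup in the results was not tested.

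Genes were compared on the log2 scale as the treated mean minus the average of the control and ECM means, called here the average difference. In edgeR's quasi-likelihood test with Benjamini-Hochberg adjustment over 14626 genes, 125 genes (0.855%) had an adjusted p below 0.05, 99 of them higher in treated ECM (0.677%) and 26 lower (0.178%). Such a difference can come from 1 of the other groups alone. A gene was therefore taken as beyond both groups only when it also differed from control and from ECM in the same direction, each at an unadjusted p below 0.05. This left 47 genes (0.321% of those tested), 32 higher (0.219%) and 15 lower (0.103%). Of the remaining calls, 34 had a treated mean between those of control and ECM, and 44 had a treated mean outside both without passing both pairwise tests.

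Of the 47 genes, 13 belonged to any of the 40 gene lists and the rest to none. The higher genes included MHC class II genes and their regulator Ciita, other genes that were also higher in ECM than in control, heat shock and endoplasmic reticulum chaperones, the activity-regulated gene Arc and 4 genes that were lower in ECM than in control. The lower genes included the transferrin receptor gene Tfrc, the endothelial kinase gene Bmx and genes that were higher in ECM than in control. By the test of ECM against control (1494 genes called, 10.2%, with 7.3% higher and 2.91% lower in ECM), 11 of the 32 higher genes were also higher in ECM than in control, 4 were lower in ECM and 17 were not called. Of the 15 lower genes, 7 were higher in ECM and 8 were not called. The levels of all 4 treated libraries lay above all 8 others in 21 of the 32 higher genes and below them in 11 of the 15 lower genes. Over all genes tested, 2.41% and 2.15% showed such separation, but the members were chosen on the same values, so nothing is read from these counts.

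**Figure D1:**
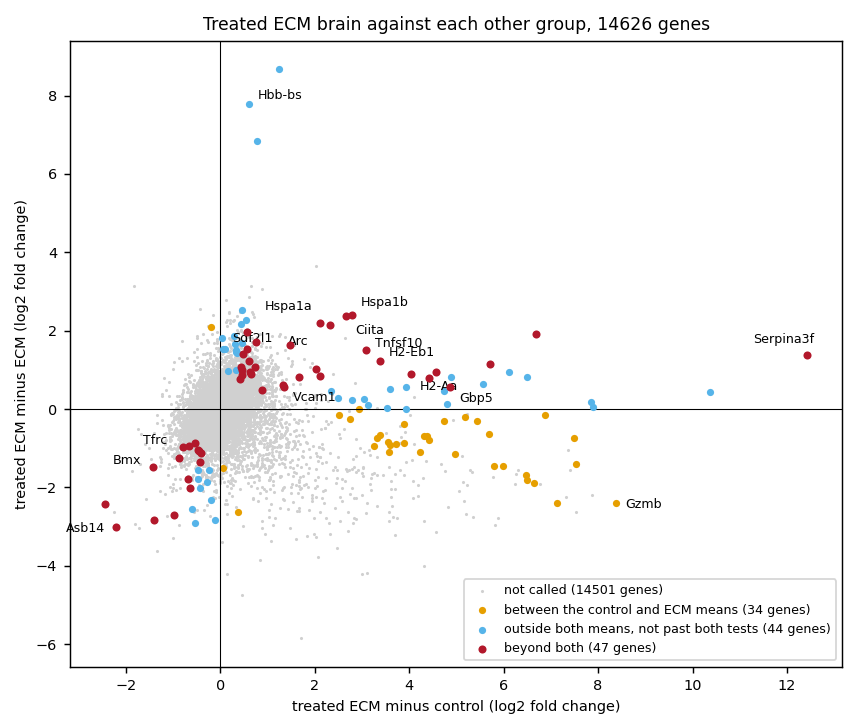
Difference of treated ECM from control (horizontal axis) and from ECM (vertical axis), both as log2 fold changes, for each of the 14626 genes tested, coloured by the class of the gene. The 47 genes beyond both groups lie in the upper right or lower left part, while genes above control but below ECM, such as Gzmb, lie to the right below the zero line and hemoglobin genes near the top. Serpina3f had no count in control, so its place on the horizontal axis depends on the fit and is not a measured fold.

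A stricter rule, an adjusted p for the larger of both pairwise p-values, passed for 0 genes in edgeR (smallest 0.0734, for Tnfsf10 and Ciita). It passed for 7 higher and 2 lower genes with DESeq2 and for 18 and 4 with limma's voom and sample weights. At an unadjusted value below 0.05, 170 genes were higher and 273 lower than both groups in edgeR. The number beyond both also depended on single libraries. It was 111 higher and 77 lower without ECM 4, and 16 and 4 without treated 2. Without treated 3 it was 17 and 0, and without treated 4, 19 and 0. The lower count was 4 without treated 1, 5 without ECM 1, and 9, 8, 4 and 8 without control 1, 2, 3 and 4. Without control 4, ECM 2 and ECM 3 together, 194 genes were higher and 115 lower, and these held 45 of the 47. Of the 32 higher genes, 14 stayed beyond both whichever 1 of the 12 libraries was left out, but of the 15 lower genes 0 did.

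**Figure D2:**
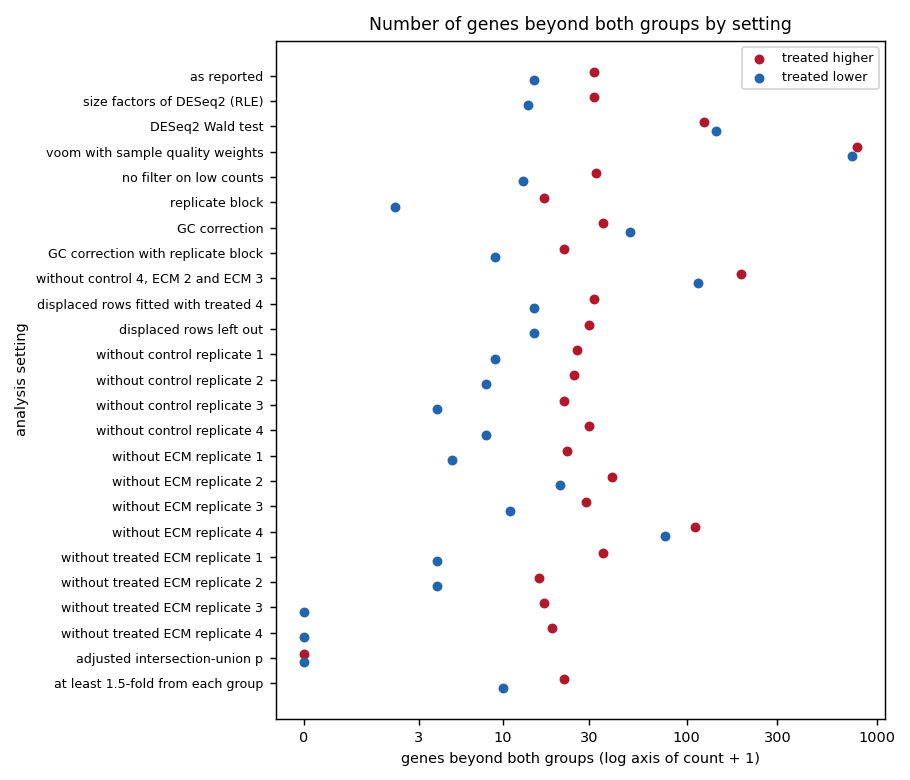
Number of genes beyond both groups, higher (red) and lower (blue), as reported and under each other setting (vertical axis), on a log axis of the count plus 1. Counts range from 0 with the adjusted intersection-union p to 787 higher and 742 lower with voom and sample quality weights.

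MHC class II genes had the largest share of members beyond both among the 40 gene lists. Of 7 tested members, 5 were called higher (against 0.677% of all genes) and 4 lay beyond both, namely Ciita, H2-Eb1, H2-Aa and Cd74. The median over the 7 was 2.30 (log2) for the average difference, 3.38 against control and 0.80 against ECM. Over all genes tested these medians were 0.0024, 0.0063 and -0.011.

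Ciita, which encodes the coactivator that switches on MHC class II genes (build mm10, chromosome 16, 10480059 to 10528418), had the largest difference from ECM in this list. Its levels were 1.23, 1.18, 1.09 and 0.947 CPM in control 1 to 4, 1.899, 0.788, 0.7998 and 1.86 CPM in ECM 1 to 4 and 4.32, 9.31, 6.96 and 7.898 CPM in treated 1 to 4. Every treated library lay above every other library, and Ciita was not called in ECM against control (log2 0.28 ± 0.36). The average difference was 2.53 ± 0.28 (log2 ± SE, edgeR adjusted p = 4.61e-04), with 2.67 ± 0.35 against control and 2.39 ± 0.35 against ECM.

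H2-Eb1, a class II beta chain gene (chromosome 17, 34305867 to 34316674), had levels of 1.495, 1.98, 0.872 and 1.89 CPM in control, 7.9, 8.75, 4.64 and 6.77 CPM in ECM and 9.26, 22.98, 13.6 and 19.9 CPM in treated ECM. The groups formed 3 steps without overlap, although treated 1 stood close to ECM 2. The average difference was 2.30 ± 0.26 (adjusted p = 5.97e-04), and the difference from ECM was 1.23 ± 0.32.

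The alpha chain gene H2-Aa (chromosome 17, 34282744 to 34287823) had 1.44, 2.103, 1.24 and 0.812 CPM in control, 11.2, 17.7, 8.48 and 12.03 CPM in ECM and 13.3, 32.4, 20.7 and 26.03 CPM in treated ECM. Treated 1 lay below ECM 2, so these groups overlapped, while the other treated libraries were above every ECM library (average difference 2.47 ± 0.27, adjusted p = 4.31e-04; 0.90 ± 0.31 against ECM). Cd74, whose product is the invariant chain that escorts class II molecules (chromosome 18, 60803848 to 60812652), had 5.23, 5.57, 2.18 and 3.52 CPM in control, 52.6, 66.5, 42.2 and 41.2 CPM in ECM and 41.9, 121, 78.5 and 112 CPM in treated ECM. Again treated 1 lay within the ECM range (average difference 2.61 ± 0.27, adjusted p = 3.49e-04). Cd74 differed from ECM by only 0.80 ± 0.33, and it was beyond both in 8 of 12 omissions of 1 library. Against ECM alone, the edgeR adjusted p was 0.0017 for Ciita and 0.0315 for H2-Eb1, but 0.09 for H2-Aa and 0.138 for Cd74.

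The remaining members did not pass both pairwise tests. H2-Ab1, the partner chain of H2-Aa, was called higher on average (log2 2.25 ± 0.28, adjusted p = 0.00113), but its treated range of 12.4 to 38.1 CPM enclosed the ECM range of 12.8 to 23.6 CPM. H2-DMa and H2-DMb1, which encode the chains that load peptide onto class II molecules, were not called (adjusted p = 0.228 and 0.11) and differed from ECM by 0.10 ± 0.20 and 0.03 ± 0.31. Leaving out 1 library at a time left 3 to 5 class II genes beyond both. Because H2 genes are alike in sequence, reads may be shared between them, and their single values are uncertain to that extent.

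Genes of other cell types were read beside this list. Summed over its 8 members, MHC class II expression was 14.9 to 22.5 CPM in control, 83.0 to 133.6 CPM in ECM and 94.4 to 243.3 CPM in treated ECM. T and NK cell genes (18 summed) had 13.3 to 17.7, 133.3 to 255 and 37.2 to 71.0 CPM, and monocyte and macrophage genes (14 summed) 22.3 to 29.4, 203 to 424 and 64.1 to 110.9 CPM. Both of these sums were lower in every treated library than in every ECM library. Class II expression was not, nor were other sums: homeostatic microglial genes (12 summed) ranged from 422 to 449, 304 to 436 and 355 to 507 CPM, and activated microglial genes (18 summed) from 1479 to 2340, 1957 to 3070 and 2677 to 2863 CPM. A sum follows its most abundant members, and for activated microglial genes the members went the other way. Their median difference from ECM was -0.70 (log2), against -1.95 for T and NK cell genes and -1.33 for monocyte and macrophage genes. It was 0.39 for homeostatic microglial genes and -0.011 over all genes tested. B and plasma cell genes (8 summed) had 64.9 to 93.5, 69.9 to 105.1 and 88.4 to 138.1 CPM. Among B cell genes, Ms4a1, Cd79a and Cd79b had 9, 28 and 70 counts over all 12 libraries, and Pax5 had 286, with means of 1.65, 2.21 and 0.786 CPM in control, ECM and treated ECM. Among dendritic cell genes, Xcr1, Cd209a and Ccr7 had 8, 12 and 24 counts, while Flt3 averaged 13.2, 11.9 and 12.8 CPM and Zbtb46 26.9, 22.4 and 22.3 CPM. Itgax, a dendritic cell and activated myeloid gene, averaged 0.168, 4.02 and 1.32 CPM. The part of these cell types in the class II result was not tested.

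The upstream sequences of H2-Aa and H2-Eb1 are shown because the factors that recruit the Ciita product bind conserved elements there. Each is the 200 bases before the gene's start (RefSeq, GRCm38.p6), with H2-Aa on the minus strand at chr17:34287824-34288023 and H2-Eb1 on the plus strand at chr17:34305667-34305866. Capitals mark matches, on either strand, to the Y box letters CTGATTGG, the X2 box letters TGACGTCA and, in H2-Aa, the letters GAANNTTC discussed with the heat shock genes, which overlap its Y box by 1 base.
H2-Aa: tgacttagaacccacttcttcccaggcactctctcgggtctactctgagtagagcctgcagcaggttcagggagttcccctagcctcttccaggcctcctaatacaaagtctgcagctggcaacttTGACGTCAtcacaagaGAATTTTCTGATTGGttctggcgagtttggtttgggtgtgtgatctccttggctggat
H2-Eb1: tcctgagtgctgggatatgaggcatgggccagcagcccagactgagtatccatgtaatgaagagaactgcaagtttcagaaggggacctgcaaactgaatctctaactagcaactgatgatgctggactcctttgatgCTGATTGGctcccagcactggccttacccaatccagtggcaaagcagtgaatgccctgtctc
The Y box letters lay 51 to 44 bases before the start in H2-Aa and 62 to 55 bases before it in H2-Eb1. Of 32851 upstream windows of this length, 3.54% held the Y box letters and 1.47% the X2 box letters. A match describes the letters only.

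Beyond class II, 8 other genes were raised in ECM and had a higher mean still in treated ECM. Against ECM alone, the edgeR adjusted p was 0.0016 for Tnfsf10, 0.038 for Serpina3f and 0.048 for Ly6i. It was 0.052 for Xdh, 0.071 for Apol10b, 0.077 for Gbp5 and Vcam1 and 0.15 for Serpina3g, which passed by unadjusted p only. Tnfsf10, which encodes the death ligand TRAIL (chromosome 3, 27317028 to 27342427), had 3.84, 3.65, 4.79 and 4.06 CPM in control, 10.03, 12.3, 18.4 and 8.78 CPM in ECM and 34.7, 35.04, 37.3 and 32.5 CPM in treated ECM. The 3 groups were fully separate, and the treated libraries lay close together. Its average difference of 2.29 ± 0.18 had an adjusted p of 4.83e-05, with 1.5 ± 0.21 against ECM. Leaving out any 1 library kept the adjusted p at or below 5.27e-04.

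Gbp5, a guanylate-binding protein gene with a role in inflammasome activation (chromosome 3, 142493978 to 142522344), had 4.91, 3.71, 4.87 and 5.61 CPM in control, 81.7, 100.2, 121 and 74.7 CPM in ECM and 106, 156, 148 and 147 CPM in treated ECM. Treated 1 lay within the ECM range and the other treated libraries above it (average difference 2.71 ± 0.16, adjusted p = 2.72e-06). The excess over ECM was 0.56 ± 0.19. Gbp5 was the only one of 14 tested interferon-gamma-inducible GTPase genes and regulators beyond both, although 11 of the 14 were called higher (0.677% over all genes). The median of the list was 4.06 against control and -0.30 against ECM.

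Serpina3f and Serpina3g, neighbouring genes for serine protease inhibitors on chromosome 12, were measured in treated 1 to 3 only, because the values of treated 4 were unreliable for genes with long names. Serpina3f had 0 counts in all 4 control libraries, 13.4, 24.04, 16.5 and 14.7 CPM in ECM and 23.3, 59.02 and 51.2 CPM in treated 1 to 3. Against a floor of 3 counts over the control group, treated ECM was at least 905-fold higher, and against ECM the log2 difference was 1.38 ± 0.34. Treated 1 fell within the ECM range for both genes. Serpina3g had 0.135 to 1.55 CPM in control, 16.1 to 31.8 CPM in ECM and 26.2, 59.4 and 58.2 CPM in treated 1 to 3. Its difference from ECM was 1.16 ± 0.48. Serpina3g was beyond both in 7 of 12 omissions of 1 library and not with the replicate block or when treated 4 was kept. The omission of treated 4 took no value from Serpina3f or Serpina3g, so it does not test their stability. In the authors' deposited table the treated 4 counts were 857 for Serpina3f and 851 for Serpina3g, which are 54.2 and 53.8 CPM at that library's scale. Both were named after their values were seen, and the family has close copies that can share reads.

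Vcam1, the adhesion molecule that holds leukocytes to activated endothelium (chromosome 3, 116109949 to 116129688), had 30.6, 29.3, 26.2 and 38.4 CPM in control, 38.3, 73.1, 53.1 and 48.9 CPM in ECM and 73.6, 87.8, 82.3 and 74.1 CPM in treated ECM. The lowest treated library stood just above the highest ECM library. The average difference was 0.96 ± 0.16 (adjusted p = 0.0102), and the call was lost without treated 2 or treated 3 (adjusted p up to 0.0596). Of 12 endothelial activation genes, 4 were called higher and 1 lower (0.677% and 0.178% over all genes), and Vcam1 was the one beyond both (0.321%). The selectin genes Selp and Sele, called higher on average, differed from ECM by 0.46 ± 0.43 and 0.95 ± 0.52. Icam1, another adhesion gene, lay between the groups, with 15.9 to 22.4 CPM in treated ECM against 1.28 to 2.24 in control and 21.04 to 42.8 in ECM. Plat, which encodes tissue plasminogen activator, was called lower and was at the control level, with 37.2 to 41.3 CPM in treated ECM, 34.5 to 40.1 in control and 102 to 128 in ECM.

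Xdh, the purine-degrading enzyme xanthine dehydrogenase (chromosome 17, 73883895 to 73950196), rose in steps from 9.82, 5.32, 11.3 and 13.2 CPM in control to 24.5, 18.4, 28.5 and 23.2 CPM in ECM and 33.2, 37.7, 51.9 and 48.02 CPM in treated ECM. No treated library overlapped another group (average difference 1.48 ± 0.21, adjusted p = 0.00309). The other members of this set were Apol10b, of the apolipoprotein L family, and Ly6i, of the Ly6 surface protein family. Apol10b had 0.135 to 0.363, 1.97 to 4.08 and 3.59 to 7.37 CPM in control, ECM and treated ECM. Ly6i had 0 to 0.0619, 0.413 to 1.02 and 0.676 to 3.89 CPM, with 0 counts in 3 control libraries.

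**Figure D3:**
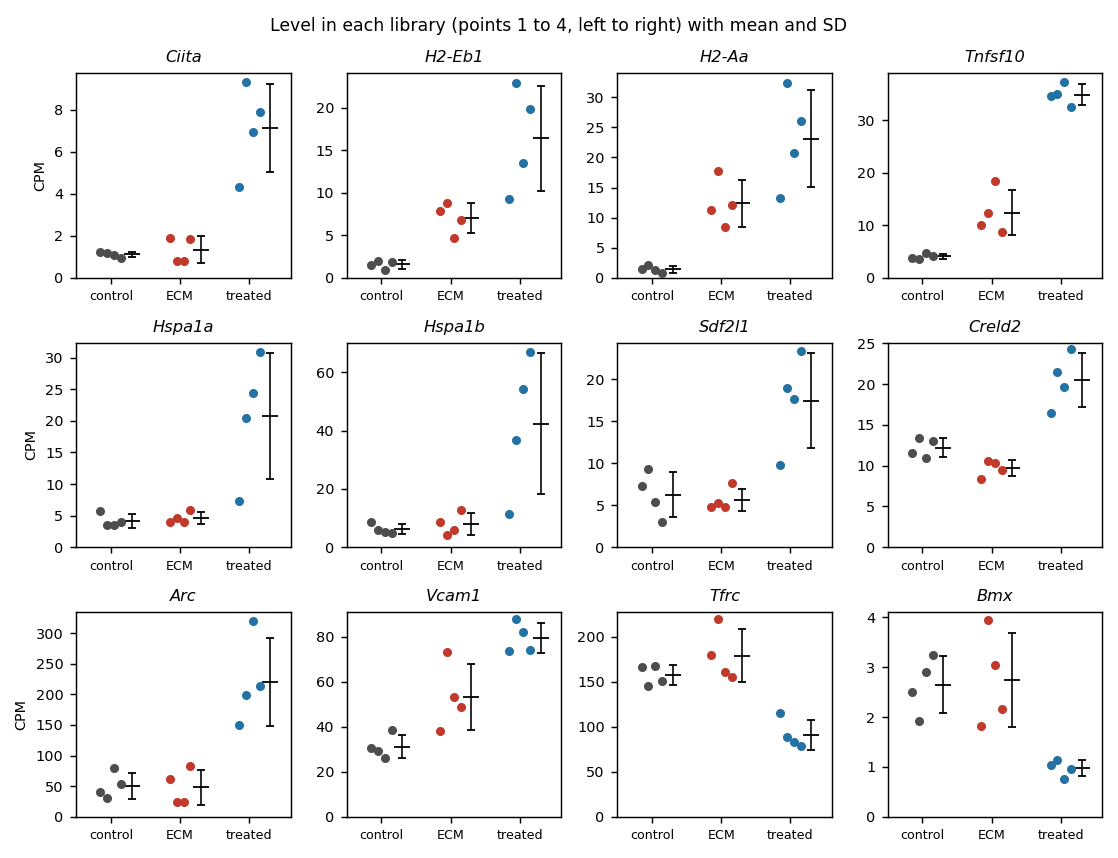
Expression of 12 genes in each library, in CPM on linear axes from 0, with control (grey), ECM (red) and treated ECM (blue); points run from library 1 to 4, and the bar beside them is the mean ± SD of the 4 libraries. The treated points sit above the others for Ciita, Tnfsf10, Hspa1a, Arc and Creld2 and below them for Tfrc and Bmx, while treated 1 reaches the ECM range for H2-Aa and Hspa1b.

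Heat shock and endoplasmic reticulum chaperone genes formed a separate set. Of 19 genes of the heat shock and unfolded protein response, 5 were called higher (against 0.677% of all genes) and all 5 lay beyond both groups on the higher side (against 0.219%), namely Hspa1a, Hspa1b, Sdf2l1, Creld2 and Pdia6. The median over the 19 was 0.57 for the average difference, 0.56 against control and 0.52 against ECM. None of the 5 was called in ECM against control by the edgeR test.

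Hspa1a encodes the inducible cytosolic chaperone HSP70 (chromosome 17, 34969190 to 34972156). It had 5.66, 3.46, 3.49 and 3.99 CPM in control, 4.03, 4.65, 3.999 and 5.94 CPM in ECM and 7.39, 20.4, 24.4 and 30.96 CPM in treated ECM. All treated libraries were above the others, treated 1 by a small margin. The average difference was 2.23 ± 0.29 (adjusted p = 0.00156), with 2.32 ± 0.36 against control and 2.15 ± 0.36 against ECM.

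Hspa1b, its near-identical neighbour (chromosome 17, 34956436 to 34959238), had 8.54, 6.001, 5.23 and 4.74 CPM in control, 8.81, 4.33, 5.998 and 12.7 CPM in ECM and 11.2, 36.8, 54.4 and 66.98 CPM in treated ECM. Here treated 1 lay below ECM 4 (average difference 2.59 ± 0.37, adjusted p = 0.00347). Reads of Hspa1a and Hspa1b cannot be assigned to either copy with certainty, so their values are not independent. Dnajb1, which encodes a cochaperone of HSP70, had 58.5 to 100.5 CPM in treated ECM, 34.6 to 54.5 in control and 38.5 to 65.2 in ECM and missed the threshold (adjusted p = 0.05597). Hsp90aa1, the inducible HSP90 gene, was not called (log2 -0.26 ± 0.20, adjusted p = 0.491, without treated 4).

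Sdf2l1, a component of endoplasmic reticulum chaperone complexes (chromosome 16, 17130138 to 17132383), had 7.26, 9.34, 5.38 and 3.04 CPM in control, 4.79, 5.28, 4.799 and 7.59 CPM in ECM and 9.84, 18.96, 17.7 and 23.3 CPM in treated ECM. Treated 1 exceeded the highest control library only narrowly (average difference 1.55 ± 0.28, adjusted p = 0.0169). The call was lost without treated 2, 3 or 4 (adjusted p up to 0.0967).

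Creld2, induced by endoplasmic reticulum stress (chromosome 15, 88819646 to 88826683), had 11.5, 13.4, 10.9 and 13.1 CPM in control, 8.36, 10.6, 10.3 and 9.45 CPM in ECM and 16.5, 21.5, 19.7 and 24.3 CPM in treated ECM. The groups did not overlap (average difference 0.91 ± 0.14, adjusted p = 0.00583). Corrected for GC content, Creld2 was not called (log2 0.65, adjusted p = 0.105).

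Pdia6, a protein disulfide isomerase gene (chromosome 12, 17266545 to 17284770), had 98.7, 104, 77.2 and 74.9 CPM in control, 87.1, 67.6, 68.2 and 79.95 CPM in ECM and 105, 153, 153 and 150.3 CPM in treated ECM. Treated 1 stood only just above control 2 (average difference 0.78 ± 0.14, adjusted p = 0.0212). Without control 3 or treated 2, 3 or 4 the gene was not called (adjusted p up to 0.108). Hspa5, the central chaperone of the endoplasmic reticulum, had 257 to 505 CPM in treated ECM, 235 to 288 in control and 254 to 337 in ECM and was not called (adjusted p = 0.123). Dnaja4, a cochaperone outside the list, was beyond both with 30.6 to 35.7 CPM against 21.4 to 26.4 and 10.9 to 19.8, and its call was lost in 9 of 12 omissions of 1 library.

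The upstream sequences of 4 of these genes are printed to show the elements known from stress-induced promoters. All are the 200 bases before the start in RefSeq (GRCm38.p6), at chr17:34972157-34972356 (minus strand) for Hspa1a, chr17:34959239-34959438 (minus strand) for Hspa1b, chr15:88819446-88819645 (plus strand) for Creld2 and chr12:17266389-17266588 (plus strand) for Pdia6. Capitals mark matches on either strand to GAANNTTC, a pair of heat shock element units, to the Y box letters, or to the endoplasmic reticulum stress response element, which is CCAAT followed after 9 bases of any kind by CCACG.
Hspa1a: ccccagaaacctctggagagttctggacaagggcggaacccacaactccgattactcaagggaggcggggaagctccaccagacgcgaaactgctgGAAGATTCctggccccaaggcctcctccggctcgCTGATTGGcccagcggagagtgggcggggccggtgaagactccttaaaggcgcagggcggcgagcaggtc
Hspa1b: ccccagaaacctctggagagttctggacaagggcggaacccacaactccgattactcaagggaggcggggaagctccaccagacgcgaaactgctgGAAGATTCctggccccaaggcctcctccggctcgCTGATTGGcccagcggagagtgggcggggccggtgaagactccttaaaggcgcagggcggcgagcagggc
Creld2: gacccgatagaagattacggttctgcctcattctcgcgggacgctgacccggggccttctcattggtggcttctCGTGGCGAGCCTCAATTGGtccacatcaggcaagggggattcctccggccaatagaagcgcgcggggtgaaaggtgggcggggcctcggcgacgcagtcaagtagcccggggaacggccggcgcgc
Pdia6: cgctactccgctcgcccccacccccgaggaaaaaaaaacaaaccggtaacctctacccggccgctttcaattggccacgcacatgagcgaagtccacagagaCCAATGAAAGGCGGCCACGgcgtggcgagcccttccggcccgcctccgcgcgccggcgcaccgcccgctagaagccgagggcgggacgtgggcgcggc
The windows of Hspa1a and Hspa1b were identical in 199 of 200 bases (99.5%), with GAANNTTC 104 to 97 bases before the start and the Y box letters 70 to 63 bases before it. The stress response element lay 126 to 108 bases before the start in Creld2, on the minus strand, and 98 to 80 bases before it in Pdia6. It was present in 34 of 32851 windows (0.103%), and GAANNTTC in 5.36%. The window of Sdf2l1 held no match to the searched letters.

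Arc, which is transcribed in active neurons and acts at synapses (chromosome 15, 74669083 to 74672570), was the 1 immediate early gene called of 16 tested (0.677% of all genes were called higher). It had 40.9, 30.2, 79.6 and 53.2 CPM in control, 61.4, 24.2, 24.1 and 82.2 CPM in ECM and 150.4, 198, 319 and 213 CPM in treated ECM. Every treated library exceeded every other library, although levels varied widely within each group (average difference 2.15 ± 0.34, adjusted p = 0.00674). Among the other members, Junb had 7.71 to 30.9, 20.1 to 171 and 76.5 to 126 CPM in control, ECM and treated ECM, and Nr4a1 had 18.3 to 43.2, 20.2 to 127 and 62.7 to 128 CPM. Both encode transcription factors, were as high or nearly as high in ECM 4 as in any treated library, and were not called (adjusted p = 0.168 and 0.153). Over the list, 15 of 16 average differences were positive, with a median of 0.88, against a median of 0.0024 over all genes tested.

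A further set was lower in ECM than in control and, by unadjusted p only, higher than control in treated ECM. Against control alone, the edgeR adjusted p was 0.431 for Sox21, 0.41 for Rlbp1, 0.302 for Zbtb40 and 0.158 for Sox8. Sox21, a transcription factor gene of neural progenitors and glia (chromosome 14, 118233232 to 118237030), had 10.4, 8.91, 9.66 and 5.75 CPM in control, 2.28, 3.31, 2.399 and 5.06 CPM in ECM and 12.9, 13.7, 12.3 and 12.4 CPM in treated ECM. The treated libraries lay above all others, at 0.57 ± 0.26 over control and 1.96 ± 0.27 over ECM on the log2 scale (adjusted p of the average difference 0.0134). The call was lost without treated 2 (adjusted p = 0.0616), and Sox21 was beyond both in only 5 of 12 omissions of 1 library and not with the replicate block or without control 4, ECM 2 and ECM 3.

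Sox8, which acts with its relatives Sox9 and Sox10 in glia (chromosome 17, 25565892 to 25570686), had 39.8, 43.7, 40.98 and 34.8 CPM in control, 29.4, 25.5, 22.4 and 25.1 CPM in ECM and 51.5, 55.7, 52.9 and 56.7 CPM in treated ECM. The 3 groups did not overlap (average difference 0.76 ± 0.11, adjusted p = 0.00391; 0.45 ± 0.13 over control). Sox8 was beyond both in all 12 omissions of 1 library, Zbtb40 in 11 and Rlbp1 in 5. Rlbp1, a retinaldehyde-binding protein gene, had 18.9 to 20.7 CPM in treated ECM against 10.7 to 16.3 in control and 5.28 to 10.1 in ECM. Zbtb40, a zinc finger gene, had 17.6 to 21.1 CPM against 9.199 to 16.2 and 4.73 to 8.06. For all 4 genes the distance from ECM was larger than that from control, and after correction for GC content none of the 4 stayed beyond both, although each was still called on the average difference (adjusted p 0.00547 to 0.0199).

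The remaining higher genes were not called in ECM against control and had average differences of 0.60 to 1.53. Clec2d, which encodes a ligand of the NK cell receptor NKR-P1, had 9.05 to 12.7 CPM in treated ECM against 1.89 to 4.52 in control and 4.48 to 9.62 in ECM. Nod1, a sensor of bacterial cell wall fragments, had 10.2 to 17.8 CPM against 4.396 to 7.099 and 7.41 to 12.2. Podxl, a sialomucin of vascular surfaces, had 46.6 to 74.3 CPM against 31.7 to 38.4 and 42.7 to 55.7. Treated 1 overlapped ECM in all 3 of these genes. Treated ECM was separate from both groups for Fn3k, which repairs glycated proteins (28.1 to 32.9 CPM against 16.3 to 23.6 and 9.85 to 18.8), and for the zinc transporter gene Slc39a2 (2.24 to 3.29 CPM against 1.18 to 2.03 and 0.552 to 1.03). It was also separate for Hexa, a lysosomal hexosaminidase gene (52.9 to 66.3 CPM against 36.2 to 51.2 and 27.03 to 37.1), and for Msl1, of a histone acetyltransferase complex (151 to 163 CPM against 108 to 128 and 83.1 to 116). Ccdc117 had 29.5 to 37.9 CPM against 20.9 to 22.2 and 14.2 to 21.9, and Grrp1 5.72 to 8.36 CPM against 0.541 to 2.62 and 2.799 to 5.11, both without overlap. Of 12 omissions of 1 library, Slc39a2 and Nod1 were called in 2, Clec2d, Podxl, Msl1 and Grrp1 in 4, Hexa in 7, Fn3k in 8 and Ccdc117 in 10, with adjusted p up to 0.194 (Slc39a2).

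**Figure D4:**
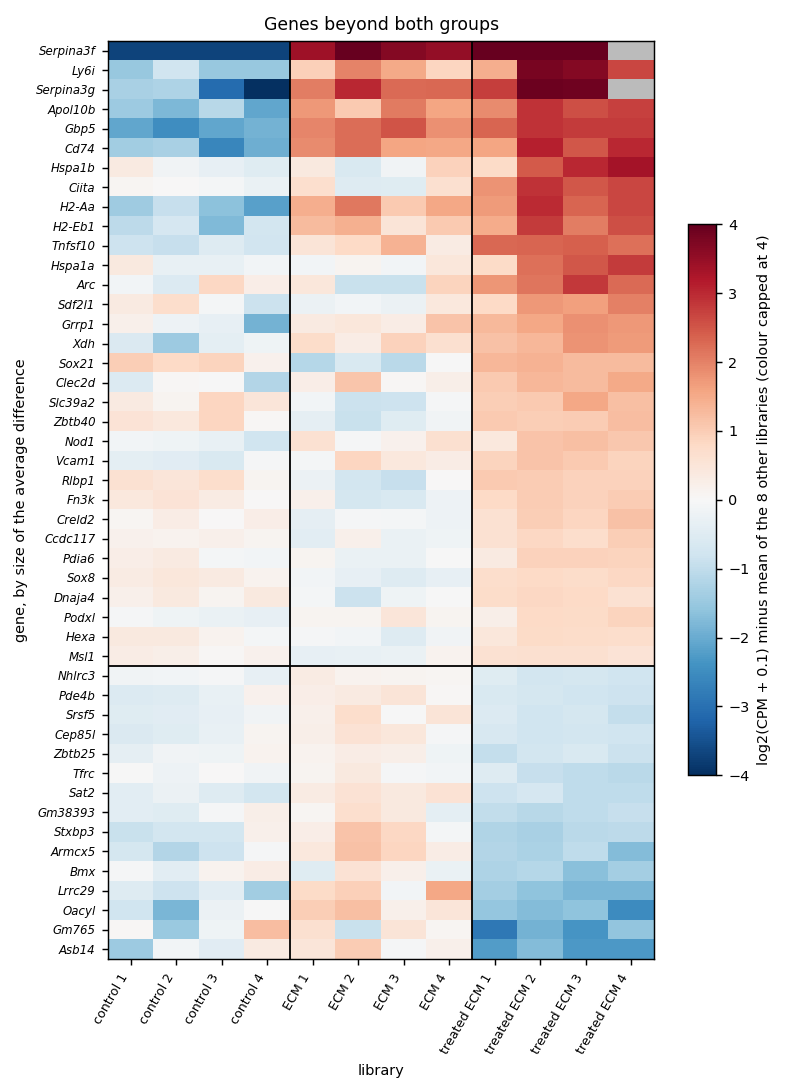
The 47 genes beyond both groups (vertical axis, by size of the average difference, higher genes above the line) in the 12 libraries (horizontal axis), coloured by log2(CPM + 0.1) minus the gene's mean over the 8 control and ECM libraries, capped at 4; grey marks treated 4 where it was left out. Treated 1 is paler than the other treated libraries in most of the higher genes.

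Treated 1 was closest to the other groups in most of these genes. Of the 30 higher genes measured in all libraries, it had the lowest treated level in 24, while treated 2, 3 and 4 did in 1, 1 and 4. Among the 15 lower genes it was closest in 7. Without treated 1, 36 higher and 4 lower genes were beyond both, and 26 and 3 of these were among the original 32 and 15.

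Among the lower genes was Tfrc, the transferrin receptor through which cells, including brain endothelium, take up iron (chromosome 16, 32608920 to 32632794). It had 166, 146, 167 and 151 CPM in control, 179.6, 219.7, 160.5 and 155 CPM in ECM and 116, 88.3, 82.7 and 78.2 CPM in treated ECM. Every treated library was below every other library, and control and ECM overlapped. The average difference was -0.88 ± 0.14 (adjusted p = 0.00943), with -0.79 ± 0.16 against control and -0.97 ± 0.16 against ECM. It was not called without treated 2, 3 or 4 (adjusted p up to 0.0731), nor with GC correction (log2 -0.64, adjusted p = 0.0658). Tfrc was the only one of 20 heme, iron and oxidative stress genes called (0.178% of all genes were called lower). Summed expression of 17 endothelial genes, Tfrc among them, was 807 to 893 CPM in control, 1053 to 1096 in ECM and 712 to 847 in treated ECM, and its part in the Tfrc result was not tested.

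Bmx, a Tec family kinase gene of endothelium (chromosome X, 164192842 to 164258193), had 2.51, 1.92, 2.91 and 3.25 CPM in control, 1.82, 3.94, 3.04 and 2.17 CPM in ECM and 1.04, 1.14, 0.7598 and 0.948 CPM in treated ECM. No treated library overlapped the rest (average difference -1.46 ± 0.28, adjusted p = 0.0283), but the call was lost without control 1, control 3 or any 1 treated library (adjusted p up to 0.145). Asb14, of a family of ubiquitin ligase adaptors, had 0.427, 1.24, 0.945 and 1.76 CPM in control, 1.899, 2.84, 1.28 and 1.55 CPM in ECM and 0.208, 0.335, 0.19 and 0.1896 CPM in treated ECM. It was separate from both groups at these low levels (average difference -2.60 ± 0.45, adjusted p = 0.0134), and it was not called without treated 1, 3 or 4 (adjusted p up to 0.0817).

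Several lower genes were raised in ECM and, by unadjusted p only, under the control level in treated ECM. Against control alone, their edgeR adjusted p ran from 0.257 (Oacyl) to 0.393 (Srsf5). Srsf5, a splicing factor gene, had 105, 108, 118 and 133 CPM in control, 169, 238, 145 and 208 CPM in ECM and 99.97, 84.6, 90.9 and 75.2 CPM in treated ECM. Stxbp3, which encodes the vesicle docking protein Munc18c, had 22.6, 25.2, 25.1 and 48.2, then 50.7, 91.8, 75.3 and 40.03 and then 18.3, 17.1, 19.9 and 20.1 CPM. Both were separate from the other groups, with control nearer to treated ECM than ECM was (log2 differences from control -0.40 ± 0.17 and -0.68 ± 0.28). Sat2, Cep85l, Armcx5, Lrrc29 and Oacyl had the same order of means, and treated ECM overlapped control for all of these but Cep85l. Pde4b, a phosphodiesterase gene that limits cyclic AMP signals, had 107 to 125 CPM in treated ECM against 129.6 to 212 in control and 196 to 273 in ECM. Zbtb25, a zinc finger gene, had 7.65 to 9.62 CPM against 11.6 to 16.3 and 13.2 to 18.1, and Nhlrc3 11.7 to 14.7 CPM against 16.2 to 19.8 and 21.9 to 25.9. The predicted genes Gm765 and Gm38393 were the other members. Each of these 12 genes lost its call in omissions of 1 library, of which there were 12. Stxbp3, Cep85l and Gm38393 were called in 2 of these, Oacyl in 3, Srsf5, Pde4b and Gm765 in 4, Lrrc29, Zbtb25 and Nhlrc3 in 5, Armcx5 in 8 and Sat2 in 10.

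The members differed in GC content in the direction of the libraries' tilt. Median transcript GC was 51.9% in the 32 higher genes, 43.5% in the 15 lower genes and 49.8% over all genes with a value. With each library's counts corrected for GC, 21 of the 32 and 13 of the 15 were still beyond both, among 36 higher and 50 lower genes in all. Those no longer beyond both were Msl1, Hexa, Podxl, Sox8, Creld2, Rlbp1, Nod1, Zbtb40, Sox21, Grrp1 and Cd74 among the higher genes and Tfrc and Srsf5 among the lower. Ciita, H2-Eb1, H2-Aa, Tnfsf10, Gbp5, Apol10b, Ly6i, Xdh, Hspa1a, Hspa1b and Arc were beyond both in all 23 fits, which included each omission of 1 library, and so was Serpina3f wherever it was tested.

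Most of the 40 gene lists had no gene in this state. A member beyond both was found in 7 lists, while 0.321% of all genes tested were beyond both and 0.855% were called. At such shares a short list often holds no member of either kind, so nothing is read from an absence. In 26 lists no member was called, among them neurons, synaptic and ion channel genes, myelinating oligodendrocytes, homeostatic astrocytes, homeostatic and activated microglia, complement and cell cycle. Interferon-stimulated genes had 1 of 28 members called, on the higher side (0.677% over all genes), and 0 beyond both. Their medians were 2.0 against control and -1.68 against ECM. The called member was Zbp1, a nucleic acid sensor, with 8.43 to 18.2 CPM in treated ECM against 16.2 to 29.4 in ECM. MHC class I and peptide loading genes had 7 of 16 called higher (0.677% over all genes), 0 beyond both, and medians of 2.40 and -0.81. Chemokines had 2 of 15 called higher (0.677% over all genes) and 0 beyond both. Cxcl9, which draws CXCR3+ T cells, had 7.49 to 33.1 CPM in treated ECM and 13.9 to 38.1 in ECM, whose ranges overlapped.

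**Figure D5:**
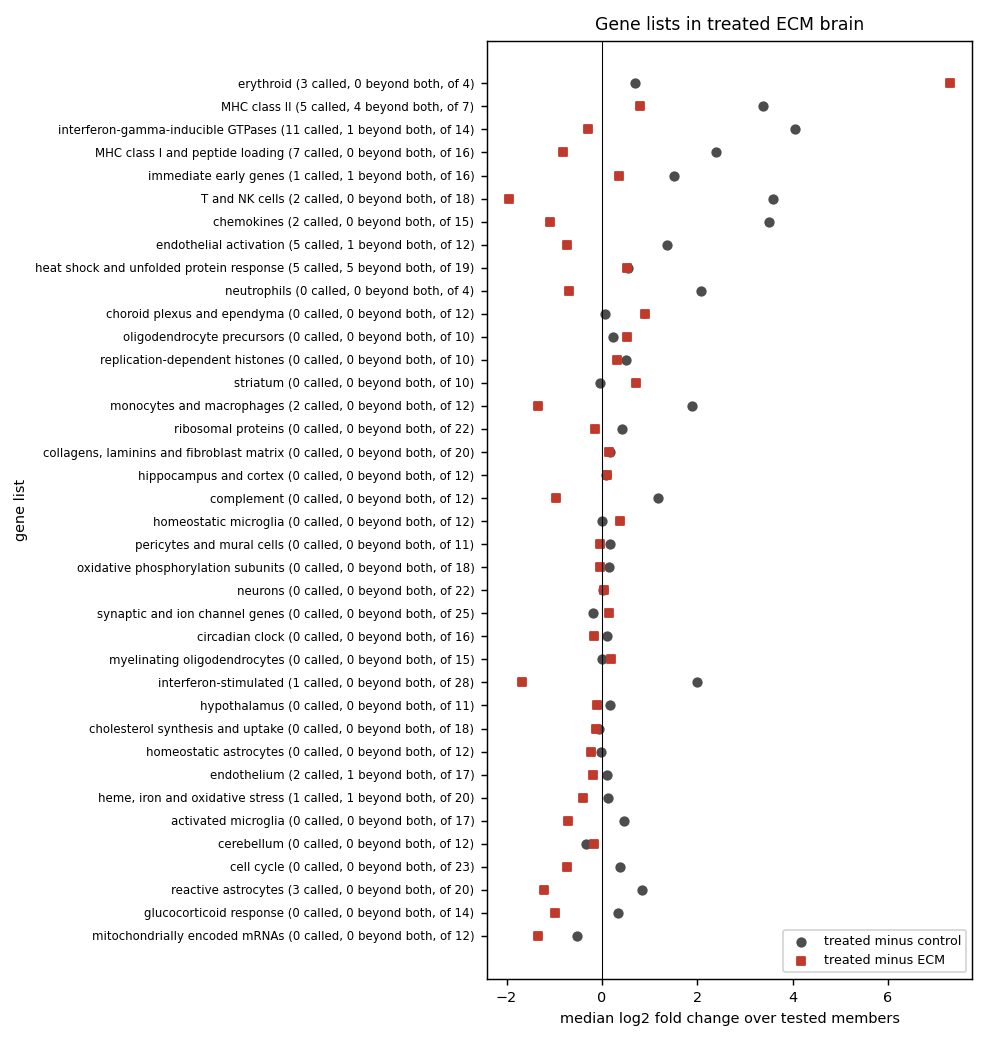
Median log2 fold change of treated ECM against control (grey circles) and against ECM (red squares) over the tested members of each gene list with at least 3 tested members (vertical axis, with counts of called members). Several lists have both medians above 0, among them MHC class II, heat shock and unfolded protein response, immediate early genes, erythroid, replication-dependent histones and oligodendrocyte precursors. Interferon-stimulated genes lie above control (2.0) and below ECM (-1.68). Among lists with both medians below 0 are mitochondrially encoded mRNAs (-0.51 against control and -1.34 against ECM), of which 0 of 12 were called.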

How the data were processed

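RNA-seq was done on mouse brains that had been kept in RNAlater and extracted with Trizol, with libraries made by a NEBNext Ultra kit that the labels do not describe as strand-specific. Per the submitters' processing notes, reads were trimmed, checked, aligned and counted by the authors on build mm10, with HTSeq, STAR, Trimmomatic and FastQC among the tools and no versions stated. The deposited table holds a read count for each of 21983 genes in 12 libraries, without scaling. In 2212 genes with names of 8 or more characters the name ran over into the next cell. They were put back in place, and treated 4 was left out for them, because its count differed from the authors' deposited tables in 97 of 106 of these genes, against 0 of 1605 genes with shorter names. For this reason 2 columns of the deposited table hold text beside counts, and all values taken from it were counts. A further 70 gene names could not be used, 26 of these because they had become dates. The authors' p-value, fold, FPKM and normalized signal columns were not used.

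After TMM scaling and filterByExpr, 14626 genes were fitted by edgeR 4.0.16 (R 4.3.3) in a single quasi-likelihood model of the 3 group means, with Benjamini-Hochberg adjustment over these genes. CPM are counts scaled to the library's total times its TMM factor. Alternatives used DESeq2 1.42.0 and limma 3.58.1. The scripts were tested on simulated data. Coordinates came from GENCODE M21 by symbol (99.5% matched), and upstream sequences from RefSeq (GRCm38.p6), which held 34 of the 47 genes beyond both. The GC correction took a loess trend of each library's deviations on transcript GC (known for 99.6% of genes tested). Libraries differed by more than sampling noise, so none was counted as a duplicate.

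The genes named are up to 15 per direction with the largest average difference among those beyond both, with at least 1 CPM in the higher group, no overlap of treated libraries with others and no predicted gene models, plus up to 4 members per list. Members and lists were chosen with earlier results of these data known. Named after their values were seen were Serpina3f, Serpina3g, Sox8, Ccdc117, Pdia6, Dnaja4, Hexa, Msl1, Clec2d, Nod1, Podxl, Apol10b, Ly6i, Sat2, Armcx5, Lrrc29, Oacyl, Gm765, Gm38393 and any list member beyond the first 4.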

Additional observations from a re-analysis of the deposited data

Results flagged for a closer look

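Within groups of 4 libraries, 10 of 179 gene and group pairs had 1 library far from the other 3 for its range, against about 5% that chance gives. In treated 1, H2-DMa was at 10.25 CPM (others 14.3 to 14.9) and Pdia6 at 105.4 CPM (others 150.3 to 152.7). Asb14 stood at 0.335 CPM in treated 2, above 0.190 to 0.208 in the others. ECM 2 was high for the chemokine gene Cxcl10 at 229 CPM (others 68.6 to 82.1), for Plat at 128 CPM (others 101.9 to 105.2) and for H2-DMb1 at 4.18 CPM (others 3.20 to 3.36). Grrp1 was at 5.11 CPM in ECM 4, against 2.80 to 3.15 in the other ECM libraries. Control 4 was high for Hsp90aa1 at 1160 CPM (others 708.5 to 748) and for Stxbp3 at 48.2 CPM (others 22.6 to 25.2). Zbp1 had 0 CPM in control 1 and 0.338 to 0.371 CPM in the other controls.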

How the results depend on the processing

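The called genes numbered 323 higher and 255 lower with DESeq2, 1854 and 1518 with voom and sample quality weights, 432 and 188 without control 4, ECM 2 and ECM 3, and 73 lower with GC correction. Genes beyond both were 123 higher and 143 lower with DESeq2, 787 and 742 with voom, 194 and 115 without those 3 libraries, 50 lower with GC correction, and 0 and 0 by the adjusted p for both pairwise tests. Genes between the means were 83, 344, 85 and 54 with DESeq2, with voom, without those 3 libraries and with GC correction, and genes outside both means but not past both tests 229, 1499, 226 and 74. Heat shock and unfolded protein genes beyond both were 12 with voom and 9 without those 3 libraries. The cause was not tested. Replicate numbers are shared between groups, but same-numbered libraries did not deviate together (correlations -0.574 to 0.284). Differences in quality between libraries also enter these correlations, and whether same-numbered libraries shared a batch was not tested. With the number as a replicate block, 59 genes were called higher and 3 lower, 17 and 2 were beyond both, 20 were outside both means, and 3 heat shock genes were beyond both. With block and GC correction, 17 were called lower, 9 were lower than both and 3 heat shock genes were beyond both. Omitting 1 library gave 57 to 222 called higher (222 without ECM 4, 57, 59 and 57 without treated 2, 3 and 4) and 2 to 113 called lower (113 without ECM 4, 2 without treated 3). It gave 16 to 111 higher and 0 to 77 lower beyond both, 21 to 44 between the means, 20 to 103 outside them, 3 to 5 class II genes and 3 to 7 heat shock genes beyond both. The other scaling, no filter on low counts and both treatments of displaced genes kept every count of genes within 1.5 times. Over the named genes, 1143 of 1338 values kept direction and side of the threshold, 174 lost and 21 gained the call, and 0 changed direction.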

Other observations

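Hemoglobin genes were called higher on average without being beyond both groups. Of 4 tested erythroid genes 3 were called (against 0.677% of all genes called higher), namely Hbb-bs, Hba-a1 and Hbb-bt. Hbb-bt had 0 counts in ECM and was called in only 4 of 12 omissions of 1 library (adjusted p up to 0.13). Hbb-bs, the adult beta globin gene, had 19.5, 30.1, 18.4 and 6.56 CPM in control, 0.228, 0.158, 0 and 0.103 CPM in ECM and 49.4, 38.99, 16.3 and 9.099 CPM in treated ECM, and Hba-a1, an alpha globin gene, had 8.11, 10.9, 7.05 and 3.38, then 0.152, 0.0788, 0 and 0.155 and then 24.8, 15.6, 7.54 and 2.65 CPM. The treated and control ranges overlapped for both, and near-identical globin copies can share reads.

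Among genes outside both means that did not pass both tests, chosen after their values were seen, values are given for 5. Cd86, a costimulatory molecule for T cells, differed by -0.19 from control and by -2.32 from ECM (log2, edgeR adjusted p of the average difference 0.0204). Havcr2, an inhibitory receptor also called TIM-3, differed by -0.43 and -2.02 (adjusted p = 0.0153), and Tlr13, a sensor of bacterial ribosomal RNA, by -0.59 and -2.55 (adjusted p = 0.0084). The monocyte and macrophage list had 2 of 12 members called higher and 0 lower on the average difference (0.677% and 0.178% over all genes). Its median was 1.89 against control and -1.33 against ECM. Slco1c1, a thyroid hormone transporter of the blood-brain barrier, was higher, by 0.10 and 1.54 (adjusted p = 0.00437), and Erbb3, a neuregulin receptor, by 0.29 and 1.86 (adjusted p = 0.0136). Gzmb, the cytotoxic protease granzyme B, lay between the groups with 7.96 to 21.4 CPM in treated ECM, 0 to 0.0727 in control and 44.7 to 97.7 in ECM.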
